A study of Mus musculus with 8 samples.

Results

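The comparison sets lymphoid progenitors that lack E2A against progenitors that lack HEB, to ask what separates the loss of these related transcription factors. It takes in 6 of the 8 arrays of the series, 4 of E2A knockout and 2 of HEB knockout cells, and the 2 wild-type (WT) arrays serve to place each difference. All 34945 of 45101 probe sets that name a single gene were used. They stand for 18193 genes, of which 11959 were bright enough to be tested and 6234 were not. The cells were common lymphoid progenitors from bone marrow of C57BL/6 mice, E2A-KO, HEB-KO or wild type, 10 to 13 weeks old. They were sorted as negative for lineage markers and for LY6D and positive for FLT3 and CD127, and several marrows were pooled in each sort. The sources used here do not give how the knockout alleles were made, nor whether each E2A knockout array had a separate sort. The p-values below therefore describe the spread between pools of cells, which may be partly technical, and not between single mice.

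E2A, encoded by Tcf3, and HEB, encoded by Tcf12, are E proteins. These basic helix-loop-helix factors pair with each other or with themselves and bind E-boxes, short motifs of the form CANNTG, while Id proteins bind E proteins and keep them from DNA. In common lymphoid progenitors, cells not yet bound to the B, T or innate lymphoid lineages, E proteins are known to act on genes for antigen receptor recombination, cytokine receptors and early B-lineage factors. E2A and HEB can form the same kinds of dimers and are known to overlap in function.

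The arrays were alike in overall brightness, with median intensities of 14.14 to 15.41 over all 8. The upper quartile of intensity was 54.88 to 62.75 on the E2A knockout arrays, against 68.51 and 63.32 on the HEB knockout arrays and 64.50 and 66.11 on WT. RNA quality signs also moved with the comparison. The gap between 3' and 5' probe sets of the actin control was 3.86 to 4.78 on the log2 scale on E2A knockout arrays, against 3.37 and 3.58 on HEB knockout arrays, and 4.45 and 3.84 on WT. The hybridization controls, spiked in at a fixed amount, read 11.32 to 12.51 on E2A knockout arrays, against 10.11 and 11.42 on HEB knockout arrays and 11.23 and 10.07 on WT. The part of these measures in the differences was not tested beyond the fit with the hybridization controls given below. HEB knockout array 1 correlated more closely with WT array 2 (r = 0.988 over tested genes) than with HEB knockout array 2 (0.974), and E2A knockout array 3 stood apart from its own group, with correlations of 0.925 to 0.936. Xist read 5.02, 11.61, 4.64 and 11.14 on E2A knockout arrays 1 to 4, against 9.88 and 10.79 on HEB knockout and 11.18 and 9.63 on WT arrays, so the sexes were not mixed alike in the pools. Ly6d, the gene of the protein used to exclude cells in the sort, read 6.75, 4.48, 4.26 and 6.88 on the E2A knockout arrays, against 7.52 and 3.63 on the HEB knockout arrays and 3.53 and 7.83 on WT, so it varied within every genotype.

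The genes chosen to mark the sorted cells were present in both knockouts, at unequal levels. They include Ly6d, although its protein served to exclude cells in the sort. The summed intensity of Flt3, Il7r, Kit, Cd93, Ly6d and Ptprc was 3827 to 4555 on E2A knockout arrays, against 6937 to 8956 on HEB knockout arrays and 7882 to 8528 on WT arrays, and for 4 of the 6 genes every E2A knockout array lay below both HEB knockout arrays. Fewer cells of a type and less RNA per cell cannot be told apart in these bulk samples. Markers of committed B cells summed to 79.82 to 99.37 in E2A knockout cells, against 79.94 to 171.6 in HEB knockout and 71.62 to 428.8 in WT cells, and those of T cells to 74.95 to 84.78, against 72.51 to 73.07 and 71.15 to 79.88. Hba-a1, Ms4a2, Ms4a1, Fcer2a, Prdm1, Cd3g, Ncr1 and Gzma, defining genes of red cells, basophils, mature B, plasma, T and NK cells, were dim on every array, while other markers of some of these cells were bright. Sdc1, a plasma cell marker, read 10.14, 10.53, 10.38 and 10.80 on E2A knockout arrays, against 9.76 and 9.79 on HEB knockout and 9.27 and 9.42 on WT arrays. It carried the plasma cell sum of 1147 to 1802 in E2A knockout cells, against 881.2 to 913.3 in HEB knockout and 634.7 to 715.3 in WT cells. The red cell genes Car1 and Klf1 read 8.93 and 7.81 on E2A knockout array 1, against 3.57 and 4.31 on HEB knockout array 1 and 4.28 and 4.99 on HEB knockout array 2. Neutrophil markers and the plasmacytoid dendritic cell gene Cox6a2 are given with the genes they belong to.

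Both targeted genes separated the knockouts. Tcf3 read 4.28, 3.71, 4.05 and 3.90 (log2 intensity at its brightest probe set) on E2A knockout arrays 1 to 4, against 8.57 and 8.44 on HEB knockout arrays 1 and 2, and 7.76 and 7.98 on WT arrays 1 and 2. The E2A knockout arrays lay near the floor and the HEB knockout arrays slightly above WT, and the difference between the knockouts was -4.52 (SE 0.22, limma adjusted p = 1.15e-04). Tcf12 read 8.52, 8.64, 8.56 and 8.53 on E2A knockout arrays, against 7.10 and 6.49 on HEB knockout arrays and 8.85 and 8.76 on WT. It was thus lowest in HEB knockout cells, by 1.77 (SE 0.22, limma adjusted p = 0.0372), but was far from the floor there. The other probe sets of both genes had the same sign and smaller or less even differences. The second tested probe set of Tcf3 differed by -0.97, and the others of Tcf12 by 2.25, 0.91, 0.77 and 0.07. The sources used here do not say whether any of these probe sets lies in a deleted part of its gene.

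The third E protein gene gave no counterpart to either loss. Tcf4, which encodes E2-2, read 10.39, 10.49, 9.84 and 10.68 on E2A knockout arrays, against 10.26 and 10.40 on HEB knockout and 10.95 and 10.57 on WT arrays. The groups overlapped, and the difference of 0.02 had a 95% interval of -0.59 to 0.63. Against WT it differed by -0.41 in E2A knockout and by -0.43 in HEB knockout cells, both short of the threshold.

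Across all genes, 14 differed between E2A and HEB knockout cells at a Benjamini-Hochberg adjusted p under 0.05, which is 0.117% of the genes tested. Of these, 2 were higher (0.0167%) and 12 lower in E2A knockout cells. Leaving aside Tcf3 and Tcf12, 11 were lower and Mtmr9 alone was higher. The fold differences ran from 2.85 to 22.9, and in all 14 the E2A knockout arrays did not overlap the HEB knockout arrays, as holds for 21.6% of all tested genes in the downward and 7.82% in the upward direction. A wider set of 1971 genes had an unadjusted p under 0.05, 16.5% of those tested, 1649 of them lower (13.8%) and 322 higher (2.69%) in E2A knockout cells.

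**Figure D1:**
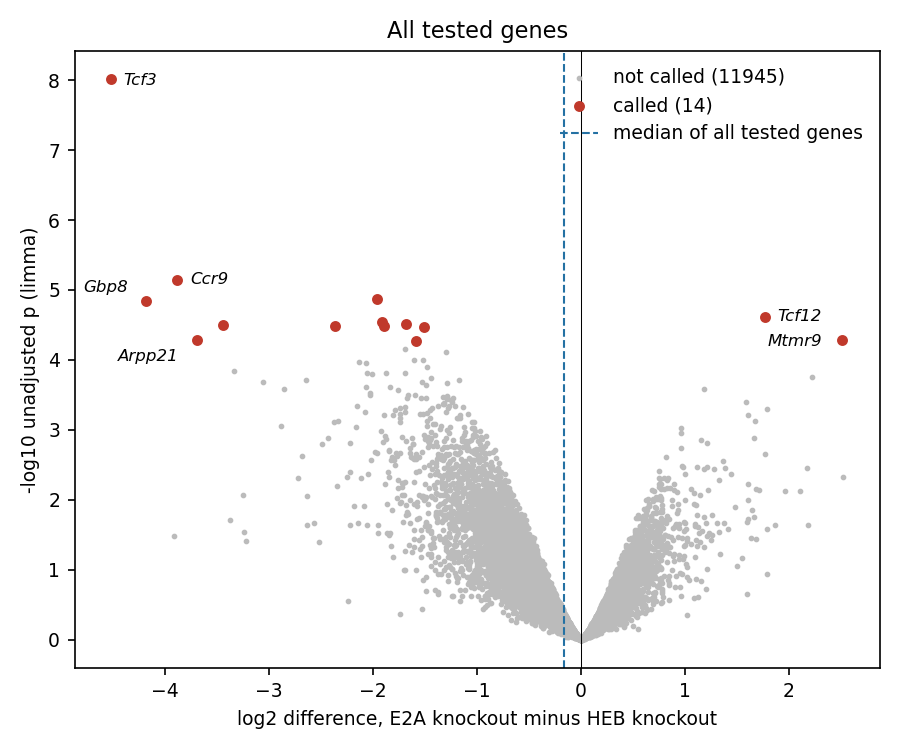
Each of 11959 tested genes is a point, with its log2 difference, E2A knockout minus HEB knockout, on the x axis and -log10 of its unadjusted limma p on the y axis; the 14 called genes are red. Tcf3 stands far above the rest, 12 of the 14 lie to the left, and the median of all genes, the dashed line, lies at -0.163.

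More genes lay on the lower side than on the higher one at every threshold. The median difference over all tested genes was -0.163, and 7526 of them (62.9%) were negative. At least 2-fold lower in E2A knockout cells were 745 genes (6.23%), and 88 (0.736%) were at least 2-fold higher. This shift depended on brightness, with genes ranked by level in 4 equal bins and medians, from dim to bright, of 0.115, -0.207, -0.345 and -0.219. Cyclic loess, which evens out such trends between arrays, brought the median to -0.003 and left 10 genes called, 7 lower (70.0%, against 85.7% as deposited) and 3 higher. Differences of single genes and lists are therefore given below as deposited, with the loess median for lists.

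The called genes included 1 receptor of progenitor migration and 1 surface lectin. Ccr9, the receptor for the chemokine CCL25 that guides progenitors to the thymus, read 4.06, 2.74, 3.97 and 3.77 on E2A knockout arrays, against 7.98 and 7.05 on HEB knockout arrays and 8.63 and 9.19 on WT. E2A knockout cells were near the floor, and HEB knockout cells lay between them and WT. The difference between the knockouts was -3.88 (14.7-fold, SE 0.42, limma adjusted p = 0.0372), and the only other probe set of Ccr9 bright enough to test differed by -1.70. Cd33, a sialic acid-binding receptor best known from myeloid cells, read 4.41, 4.46, 4.87 and 4.63 on E2A knockout arrays, against 6.24 and 6.12 on HEB knockout arrays and 6.74 and 6.40 on WT. The groups did not overlap, and the difference was -1.59 (SE 0.22, limma adjusted p = 0.0459).

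Genes of nucleotide binding, signalling and RNA regulation made up the next group. Gbp8, of the interferon-inducible guanylate-binding proteins, read 3.20, 2.86, 2.62 and 4.13 on E2A knockout arrays, against 7.48 and 7.29 on HEB knockout and 5.59 and 7.10 on WT arrays. Here HEB knockout cells were above WT and E2A knockout cells far below it, with a difference between the knockouts of -4.19 (18.2-fold, SE 0.49, limma adjusted p = 0.0372). Arpp21, an RNA-binding phosphoprotein first described in neurons, read 5.69, 5.38, 5.35 and 3.84 on E2A knockout arrays, against 9.30 and 8.21 on HEB knockout and 9.06 and 9.30 on WT arrays. Its difference was -3.69 (12.9-fold, SE 0.51, limma adjusted p = 0.0459), with -2.38 and -0.30 at its other tested probe sets. Arhgef3, a guanine nucleotide exchange factor, read 5.53, 4.996, 5.17 and 5.30 on E2A knockout arrays, against 6.82 and 7.05 on HEB knockout and 7.17 and 7.13 on WT arrays, a difference of -1.69 (SE 0.22). Cdk19, a kinase of the Mediator complex that links transcription factors to RNA polymerase, read 8.34, 8.15, 8.22 and 7.96, against 9.66 and 9.70 in HEB knockout and 10.09 and 10.14 in WT cells. The groups of Cdk19 were tight, and its difference of -1.51 (SE 0.20) was the smallest of those called. Its other probe set differed by -1.21.

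The remaining genes that were lower without E2A act in metabolism, DNA repair and cell structure. Sqor, the mitochondrial enzyme that oxidizes hydrogen sulfide, read 4.95, 4.64, 5.22 and 4.97 on E2A knockout arrays, against 6.91 and 7.71 on HEB knockout and 7.35 and 8.06 on WT arrays (difference -2.37, SE 0.31). AA467197, the mouse counterpart of human NMES1 and a small mitochondrial protein, read 3.05, 2.60, 2.96 and 3.85, against 7.28 and 5.85 in HEB knockout and 7.77 and 8.25 in WT cells (difference -3.45, SE 0.45). All 4 E2A knockout values of AA467197 lay below the median of their arrays, so its fold is an estimate at the floor, as are those of Gbp8 and Ccr9 in part, with 3 and 2 of the 4 values below. Nabp1, a single-stranded DNA-binding protein of DNA repair, read 4.38, 4.37, 3.78 and 4.09, against 6.18 and 5.92 in HEB knockout and 6.16 and 6.49 in WT cells (difference -1.90, SE 0.25, and -0.28 at its second tested probe set). Dpy19l4, a membrane protein of a family with mannosyltransferases, read 4.14, 4.02, 4.12 and 4.27, against 5.80 and 6.39 in HEB knockout and 5.80 and 5.57 in WT cells (difference -1.96, SE 0.23). Tanc1, a scaffold protein known from synapses, read 4.33, 4.19, 4.15 and 3.999, against 6.22 and 5.95 in HEB knockout and 5.16 and 5.85 in WT cells (difference -1.92, SE 0.25). For these 5 genes and for Arhgef3 and Cdk19 the limma adjusted p was 0.0372, and no E2A knockout array reached either HEB knockout array. AA467197 has a clone name and was named after its values were seen.

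Mtmr9 stood alone as a gene other than Tcf12 that was higher in E2A than in HEB knockout cells. It encodes a myotubularin-related protein without phosphatase activity of its own that binds active members of the family. It read 10.08, 9.50, 9.87 and 10.27 on E2A knockout arrays, against 7.30 and 7.54 on HEB knockout and 6.25 and 7.43 on WT arrays. The difference of 2.51 (5.71-fold, SE 0.35, limma adjusted p = 0.0459) had the same sign at its other probe sets, at 2.15 and 2.27.

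**Figure D2:**
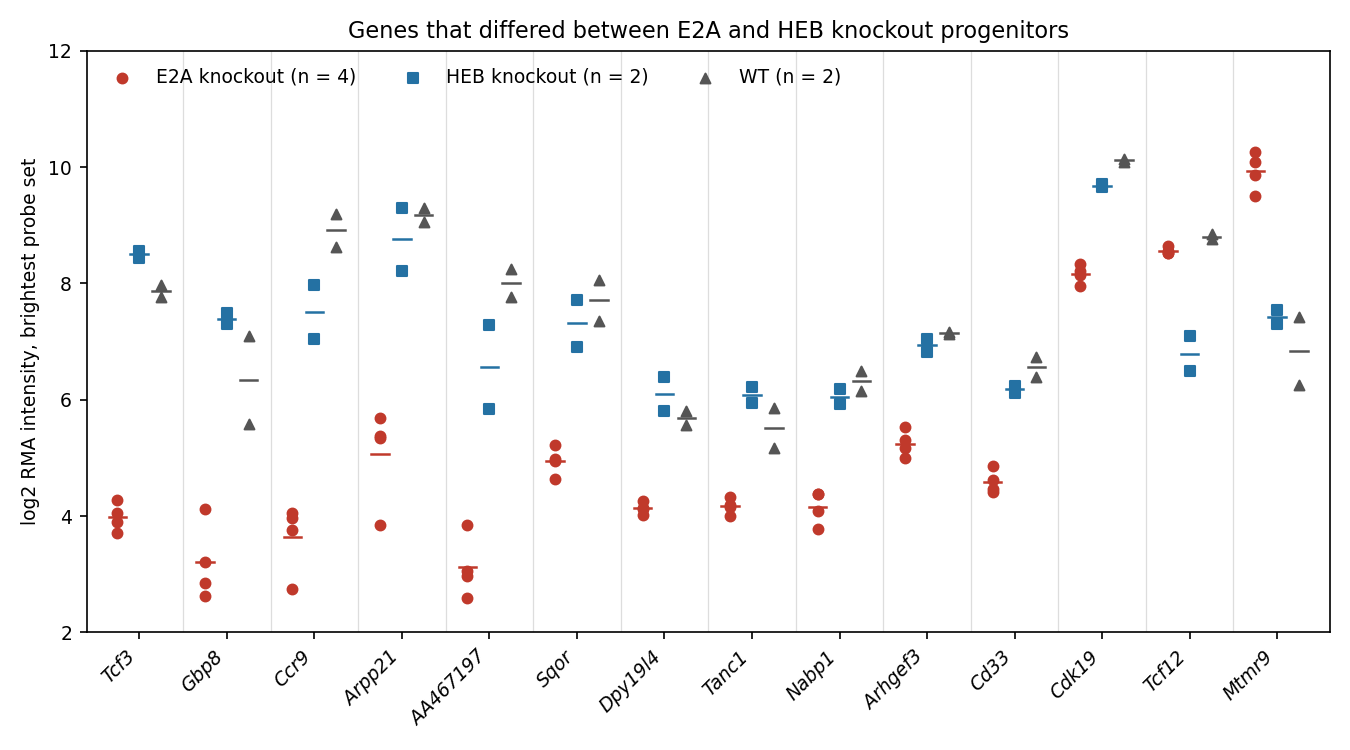
Log2 intensity of the 14 called genes on every array, with E2A knockout (circles, n = 4) left of HEB knockout (squares, n = 2) and WT (triangles, n = 2), and a bar at each group's mean. The circles lie below the squares for 12 genes and above them for Tcf12 and Mtmr9, and the triangles lie mostly near the squares.

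Many of these calls rested on few arrays. Of the 14, only Tcf3 passed without HEB knockout array 1, without HEB knockout array 2, or without E2A knockout array 1, and with the hybridization controls as a covariate. Without E2A knockout array 2 the count was 2, without array 4 it was 4, without array 3 it was 21, and without either WT array it was 6. No gene passed with HEB knockout array 1 and WT array 2 both left out, where 699 had an unadjusted p under 0.05, and in each of these fits all 14 kept their sign and a difference of at least 2-fold. Of the called genes, 7 had 12 further probe sets bright enough to test. All 12 had the same sign as the brightest, and none passed over all probe sets.

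Ccr9, AA467197 and Sqor were far lower without E2A than without HEB, and their promoter sequences are shown to place the E-box motif beside genes with this pattern. The sequences are from RefSeq (GRCm38.p6), 250 bases before to 50 after an annotated start, and CANNTG, which reads alike on both strands, is in capitals. The Ccr9 window is chr9:123766961-123767260 on the plus strand, that of AA467197 chr2:122637637-122637936 on the plus strand, and that of Sqor, at a start inside the gene's outer limits, chr2:122771463-122771762 on the plus strand.
Ccr9: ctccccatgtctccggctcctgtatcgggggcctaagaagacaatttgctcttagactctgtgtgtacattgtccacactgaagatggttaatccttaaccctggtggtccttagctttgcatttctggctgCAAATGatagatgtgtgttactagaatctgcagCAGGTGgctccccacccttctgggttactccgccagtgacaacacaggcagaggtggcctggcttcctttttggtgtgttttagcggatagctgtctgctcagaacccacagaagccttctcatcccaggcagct
AA467197: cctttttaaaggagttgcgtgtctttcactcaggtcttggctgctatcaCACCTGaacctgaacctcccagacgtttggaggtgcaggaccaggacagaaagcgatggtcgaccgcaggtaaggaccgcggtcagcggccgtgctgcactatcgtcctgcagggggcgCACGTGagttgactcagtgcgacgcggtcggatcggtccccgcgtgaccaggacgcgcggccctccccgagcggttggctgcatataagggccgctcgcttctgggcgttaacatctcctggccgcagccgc
Sqor: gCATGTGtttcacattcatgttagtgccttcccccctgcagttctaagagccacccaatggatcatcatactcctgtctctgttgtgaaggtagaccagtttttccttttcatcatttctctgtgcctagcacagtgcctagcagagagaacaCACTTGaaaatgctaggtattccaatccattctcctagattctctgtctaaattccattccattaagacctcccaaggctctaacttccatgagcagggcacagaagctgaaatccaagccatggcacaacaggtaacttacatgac

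The Ccr9 window holds CAAATG followed by CAGGTG, the AA467197 window CACCTG followed by CACGTG, and the Sqor window CATGTG followed by CACTTG. Read on the opposite strand, CAGGTG is the same site as CACCTG, a form of CANNTG that E proteins are known to bind. Of the called genes, 10 matched the promoter table, and 22 of their 24 windows held CANNTG (91.7%) and 9 held CAGGTG on either strand (37.5%). Over all 32851 windows of the same length the shares were 72.3% and 20.2%, and over the 12369 windows of tested genes 64.4% and 18.5%. Windows of the targeted genes Tcf3 and Tcf12 are among the 24. Arpp21 alone gave 9 of the 24 windows and 6 of the 9 with CAGGTG, and without it 3 of 15 windows held that form. Several windows of a gene overlap and share sequence, so the 24 are not independent, and a match of letters is a description and not a binding site.

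At the called genes, WT cells lay mostly with the HEB knockout cells. For 13 of the 14 called genes the WT mean was nearer to the HEB knockout mean, and Tcf12 was the exception. The share of all tested genes with WT nearer to HEB knockout was not counted. For 13 of the 14 every E2A knockout array lay beyond all 4 other arrays, as holds for 10.0% of tested genes downward and 4.43% upward. For 5, every HEB knockout array lay beyond all 6 others, which holds for 8.60% of tested genes upward and 2.34% downward. The 3 comparisons share arrays, so their values are given side by side and not as separate evidence. Against WT, Ccr9 differed by -5.28 in E2A knockout and by -1.40 in HEB knockout cells, and AA467197 by -4.89 and by -1.45. Arpp21 differed by -4.11 in E2A knockout and by -0.42 in HEB knockout cells, Sqor by -2.76 and by -0.40, and Cdk19 by -1.95 and by -0.44. Gbp8, Tanc1 and Dpy19l4 differed in opposite directions, by -3.14, -1.34 and -1.55 in E2A knockout and by 1.05, 0.58 and 0.41 in HEB knockout cells. Mtmr9 differed by 3.09 in E2A knockout and by 0.58 in HEB knockout cells. Of the 14, 12 also passed in E2A knockout against WT, where 53 genes did (0.443%). None passed in HEB knockout against WT, where no gene did (0.00%).

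**Figure D3:**
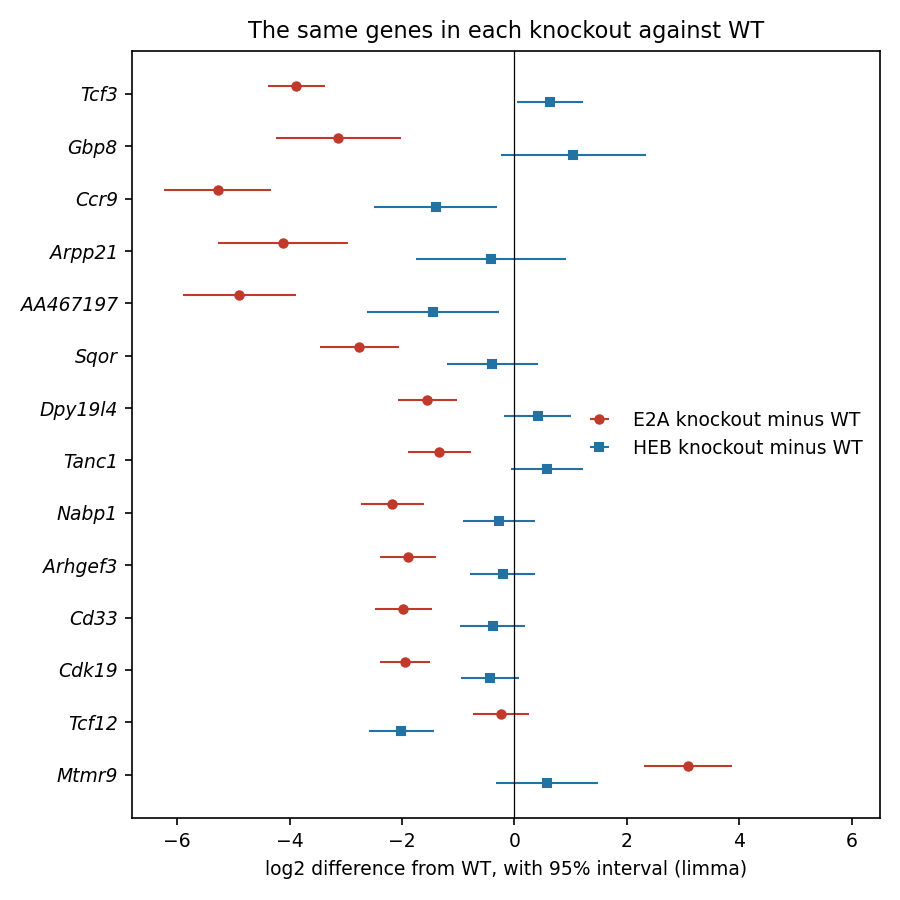
For each called gene, the log2 difference from WT with its unadjusted 95% limma interval is shown for E2A knockout (circles) above HEB knockout (squares). Circles lie far from 0 for every gene but Tcf12, while most squares lie within 0.63 of 0; Tcf12 at -2.01, AA467197, Ccr9 and Gbp8 are the exceptions.

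At an adjusted p under 0.10 the set grew to 86 of the 11959 genes tested, 79 of them lower and 7 higher in E2A knockout cells. This larger set comes from the same test at a looser threshold and contains the called genes, so it is not separate evidence. WT lay nearer to HEB knockout for 79 of the 86 and nearer to E2A knockout for 7, counts that have no share over all tested genes beside them. The E2A knockout arrays lay beyond the other 4 arrays for 84 of them, and the HEB knockout arrays beyond the other 6 for 26.

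The genes just short of the threshold held several of early lymphoid cells. Il7r, the receptor chain for interleukin 7 and the CD127 of the sort gate, read 8.56, 7.89, 8.73 and 9.04 on E2A knockout arrays, against 10.88 and 10.50 on HEB knockout and 10.51 and 10.91 on WT arrays. HEB knockout cells were at the WT level (-0.02) and E2A knockout cells below it (-2.15), with a difference between them of -2.13 (SE 0.32, limma adjusted p = 0.0652). Cd93, a surface protein of early progenitors, read 10.21, 10.26, 10.16 and 10.24, against 11.61 and 11.42 in HEB knockout and 11.49 and 11.63 in WT cells (difference -1.30, limma adjusted p = 0.0575, with -2.10, -1.39, -0.32 and 0.18 at its other tested probe sets). Tbxa2r, the thromboxane A2 receptor, differed by -1.69 (limma adjusted p = 0.0564). Xpc, which recognizes DNA damage in nucleotide excision repair, differed by -1.61, and Pdlim2, a PDZ and LIM domain protein, by -1.52 (both limma adjusted p = 0.0652). These 5 genes passed when arrays were centred on their medians, a setting that called 21 genes and took the all-gene median to -0.2555. None of the 5 passed with loess, which called 10 genes.

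The nearest to the threshold on the higher side were Auts2, Prickle1, Ptar1, Nrp1 and Il31ra. Auts2, a nuclear regulator known from the developing brain, read 8.48, 7.99, 7.47 and 8.65 on E2A knockout arrays, against 6.28 and 5.57 on HEB knockout and 5.31 and 5.65 on WT arrays (difference 2.22, limma adjusted p = 0.078). It passed with loess, and its other tested probe sets differed by 2.08, 1.09 and 0.61. Nrp1, a co-receptor for semaphorins, read 6.84, 7.85, 7.50 and 7.74, against 5.37 and 6.01 in HEB knockout and 4.46 and 5.01 in WT cells (difference 1.79, limma adjusted p = 0.0893). Il31ra, a cytokine receptor chain, differed by 1.61 (limma adjusted p = 0.091), Ptar1, a prenyltransferase-like protein, by 1.58 (0.0889) and Prickle1, of planar cell polarity, by 1.18 (0.0819). Among the largest differences with arrays apart, Fbp1, a gluconeogenic enzyme, had -3.33 (limma adjusted p = 0.0732), Cap1, a regulator of actin, 2.52 (0.16), Trgv4, a T-cell receptor gamma variable segment, 2.19 (0.235) and Heg1 2.17 (0.151). None of these 4 passed, and E2A knockout array 3 was the lowest of its group for Cap1, Trgv4 and Heg1, at 4.999, 4.56 and 5.19.

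Gene lists were described by their counts and medians, to be read against the all-gene median of -0.163 and the 21.6% and 7.82% of all genes with the E2A knockout arrays wholly below or above HEB knockout. The all-gene median moved with the setting, to -0.003 with loess, 0.010 without a filter and -0.286 with the filter at the 75th percentile. It was -0.2555 with median centring, -0.1385 with the mean of probe sets, and -0.1059 to -0.2195 leaving out single arrays. Called members were Tcf3, Tcf12, Ccr9 and Gbp8 and no others, and lists share members, Rag1 for example standing in 4. Lymphoid priming genes, which multipotent cells express before lineage choice, had 16 of 18 tested members negative, a median of -0.66 (-0.46 with loess), and 14 members with the E2A knockout arrays wholly below HEB knockout. Beside Ccr9 and Il7r, Notch1, the receptor that directs T-lineage entry, read 10.11, 9.31, 9.83 and 9.49 in E2A knockout cells, against 11.55 and 11.21 in HEB knockout and 11.63 and 11.92 in WT cells (difference -1.69, limma adjusted p = 0.0732). Its other tested probe set differed by -0.57. Ets1, a lymphoid transcription factor, differed by -1.65 (limma adjusted p = 0.193), and by -3.62, -1.60 and -0.63 at its other tested probe sets. Flt3, of the sort gate, differed by -0.45 with an interval of -0.98 to 0.08.

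Genes of V(D)J recombination, which assembles antigen receptor genes from segments, were negative in 12 of 13 tested members, with a median of -0.80 (-0.61 with loess) and 8 members wholly below HEB knockout. Rag1, of the recombinase, read 4.46, 3.41, 4.13 and 3.63 on E2A knockout arrays, against 8.49 and 5.81 on HEB knockout and 5.97 and 9.57 on WT arrays. All E2A knockout arrays were below the others, but the HEB knockout and WT arrays scattered widely, and the difference of -3.25 (SE 0.97) did not pass (limma adjusted p = 0.19). Rag2, its partner, differed by -1.51 (0.151), and Dntt, which adds bases at the joints, by -0.80 (0.206). The other tested probe sets of Dntt disagreed, at -2.29 and 1.13. Among end-joining genes Xrcc6, which encodes Ku70, read 8.45, 8.19, 8.67 and 8.71, against 10.34 and 9.63 in HEB knockout and 10.02 and 10.56 in WT cells (difference -1.48, limma adjusted p = 0.091). Nhej1, an end-joining cofactor, differed by -0.97 (0.124). For 4 of the 13 members, Nhej1 and, named after their values were seen, Xrcc5, Poll and Atm, the HEB knockout arrays lay above all 6 others, as holds for 8.60% of all tested genes.

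B-lineage specification genes were negative in 19 of 25 tested members, with a median of -0.62 (-0.53 with loess) and 10 members wholly below HEB knockout. Foxo1, a transcription factor that precedes Ebf1 in the B-cell programme, read 6.60, 5.53, 5.60 and 6.34 in E2A knockout cells, against 7.97 and 7.68 in HEB knockout and 7.93 and 8.49 in WT cells (difference -1.80, limma adjusted p = 0.091). Ebf1, which specifies the B lineage, read 2.40, 2.32, 3.06 and 2.49, against 5.79 and 3.46 in HEB knockout and 4.36 and 6.90 in WT cells. E2A knockout cells were at the floor on every array, HEB knockout array 2 was near it, and the difference of -2.06 (SE 0.75) had a limma adjusted p of 0.234. HEB knockout array 1 and WT array 2, the brighter arrays for Ebf1 and Rag1, were also those with the higher Ly6d and Vpreb1 signals, at 6.67 for Vpreb1 on HEB knockout array 1 and 8.42 on WT array 2. The part of this in the Ebf1 and Rag1 differences was not tested. Cd72, a B-cell surface inhibitor, differed by -1.49 (limma adjusted p = 0.0708). Pax5, which fixes B-cell identity, was dim in all 3 genotypes and differed by 0.18, with an interval of -0.30 to 0.65.

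The pathways upstream of these genes were less even. FOXO factors and targets were negative in 12 of 19 tested members, and their median of -0.31 was -0.07 with loess, -0.50 without E2A knockout array 4, -0.58 without HEB knockout array 2 and -0.70 with the filter on signal at the 75th percentile. Sesn3, a stress-inducible FOXO target, differed by -1.18 (limma adjusted p = 0.0946) and by 0.07 at its other tested probe set. The interleukin 7 receptor and STAT5 pathway was split, with 9 of 17 negative and a median of -0.34 (-0.06 with loess, -0.12 without HEB knockout array 1 and -0.09 without E2A knockout array 2). Jak1, a kinase of the receptor, differed by -0.64, and Bcl2, a survival gene downstream, by 1.48 (limma adjusted p = 0.204). In the E protein list, 7 of 9 tested members were negative (median -0.66, -0.51 with loess), and the median was -0.44 without HEB knockout array 1 and -1.0003 without HEB knockout array 2. The Id inhibitor Id2 read 5.54, 3.95, 2.81 and 5.21 in E2A knockout cells, against 5.79 and 5.49 in HEB knockout and 6.31 and 6.75 in WT cells, a difference of -1.26 whose interval of -2.76 to 0.24 includes 0. Lyl1, a helix-loop-helix partner of E proteins, was tight, with 10.17, 10.24, 10.00 and 10.08 against 11.01 and 10.88 in HEB knockout and 10.80 and 11.03 in WT cells (difference -0.82, limma adjusted p = 0.138).

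T-lineage and Notch lists had medians near 0, at 0.09 over 9 and 0.04 over 10 tested members, and 0.14 for each with loess. These lay above the all-gene medians of -0.163 as deposited and -0.003 with loess, but their sign was not stable. The filter at the 75th percentile left 5 and 4 members with medians of -1.65 and -0.57, below the all-gene median of -0.286 in that setting. The Notch median was also -0.05 with centring on medians, -0.08 with the mean of probe sets, -0.03 without HEB knockout array 1, -0.12 without HEB knockout array 2 and just below 0 without E2A knockout array 1 or 2. The all-gene median was lower than the Notch median in each of these settings, by the least, 0.06, with the mean of probe sets. In each list 3 members had the E2A knockout arrays wholly below HEB knockout. Cd247, the zeta chain of the T-cell receptor complex, read 4.36, 4.28, 4.32 and 3.98 in E2A knockout cells, against 6.37 and 5.49 in HEB knockout and 5.45 and 6.25 in WT cells (difference -1.69, limma adjusted p = 0.089). Lat, an adaptor of T-cell receptor signalling, differed by -1.67 (0.0847) and Dtx4, of the Deltex family in Notch signalling, by -1.15 (0.152). Gata3, a T-lineage factor, read low in all 3 genotypes and differed by 0.46, with an interval of -0.26 to 1.18.

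NK and innate lymphoid genes had a median of 0.50 (0.49 with loess), with 9 of 12 tested members positive and 4 wholly above HEB knockout. This was the highest of the 24 lists on all arrays, but it was 0.27 without E2A knockout array 4, below the homing receptors at 0.31, and 0.38 without HEB knockout array 2, below the erythroid list at 0.44. The filter at the 75th percentile left 6 members with a median of 0.14, above the all-gene median of -0.286 in that setting. Zbtb16, a zinc finger factor of innate-like T cells, read 5.35, 6.48, 5.58 and 5.47 in E2A knockout cells, against 4.71 and 3.97 in HEB knockout and 4.22 and 4.16 in WT cells (difference 1.38, limma adjusted p = 0.151). Rora, a factor of innate lymphoid cells, differed by 0.72 (0.205) and Itga4, an integrin chain, by 0.58 (0.249), with 0.71 to 1.08 at the other tested probe sets of Itga4. Homing and chemokine receptors were also more often positive, in 10 of 16 tested members with a median of 0.27 (0.18 with loess and without HEB knockout array 2), beside the fall of Ccr9. The median turned to -0.43 over the 9 members left by the filter at the 75th percentile, where the all-gene median was -0.286. NK marker genes summed to 78.44 to 475.9 in E2A knockout cells, against 93.46 to 214.2 in HEB knockout and 192 to 283.3 in WT cells.

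Families of lymphocyte and interferon-inducible GTPases had the lowest medians on all arrays apart from the 3 sex-linked genes, an order that depended on HEB knockout array 1. Without it the Gimap median was -0.52 and that of the Gbp and Irg genes -0.76, against -0.92 for granulocyte and monocyte and -0.88 for V(D)J genes. Of 8 tested Gimap genes, GTPases of lymphocyte survival, 7 were negative (median -0.87, -0.75 with loess) and 4 were wholly below HEB knockout. Gimap8 read 6.19, 5.55, 5.68 and 6.05 in E2A knockout cells, against 7.88 and 7.53 in HEB knockout and 8.24 and 9.18 in WT cells, so HEB knockout lay between the others (difference -1.84, limma adjusted p = 0.0818). Gimap1 differed by -1.85 (0.152) and Gimap6 by -1.21 (0.192). Of 9 tested Gbp and Irg genes, 8 were negative (median -0.92, -0.75 with loess) and 6 were wholly below HEB knockout. Beside Gbp8, Gbp6 differed by -2.22 (limma adjusted p = 0.122) and Irgm2 by -1.21 (0.216). The broader interferon response list was negative in 21 of 24 tested members, with a median of -0.49 (-0.31 with loess), and 9 members were wholly below HEB knockout. Ifih1, an RNA sensor, differed by -1.13 (limma adjusted p = 0.127), and Oasl2, an antiviral protein, by -1.83 (0.138). Usp18, which restrains interferon signalling, differed from WT by -2.44 in E2A knockout cells and by -1.38 in HEB knockout cells, the first of which passed, and by -1.07 between the knockouts (limma adjusted p = 0.207). Without HEB knockout array 2 the median of the interferon list was -0.05, above the all-gene median of -0.2195 in that fit. The list's median was -0.25 with the mean of probe sets.

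**Figure D4:**
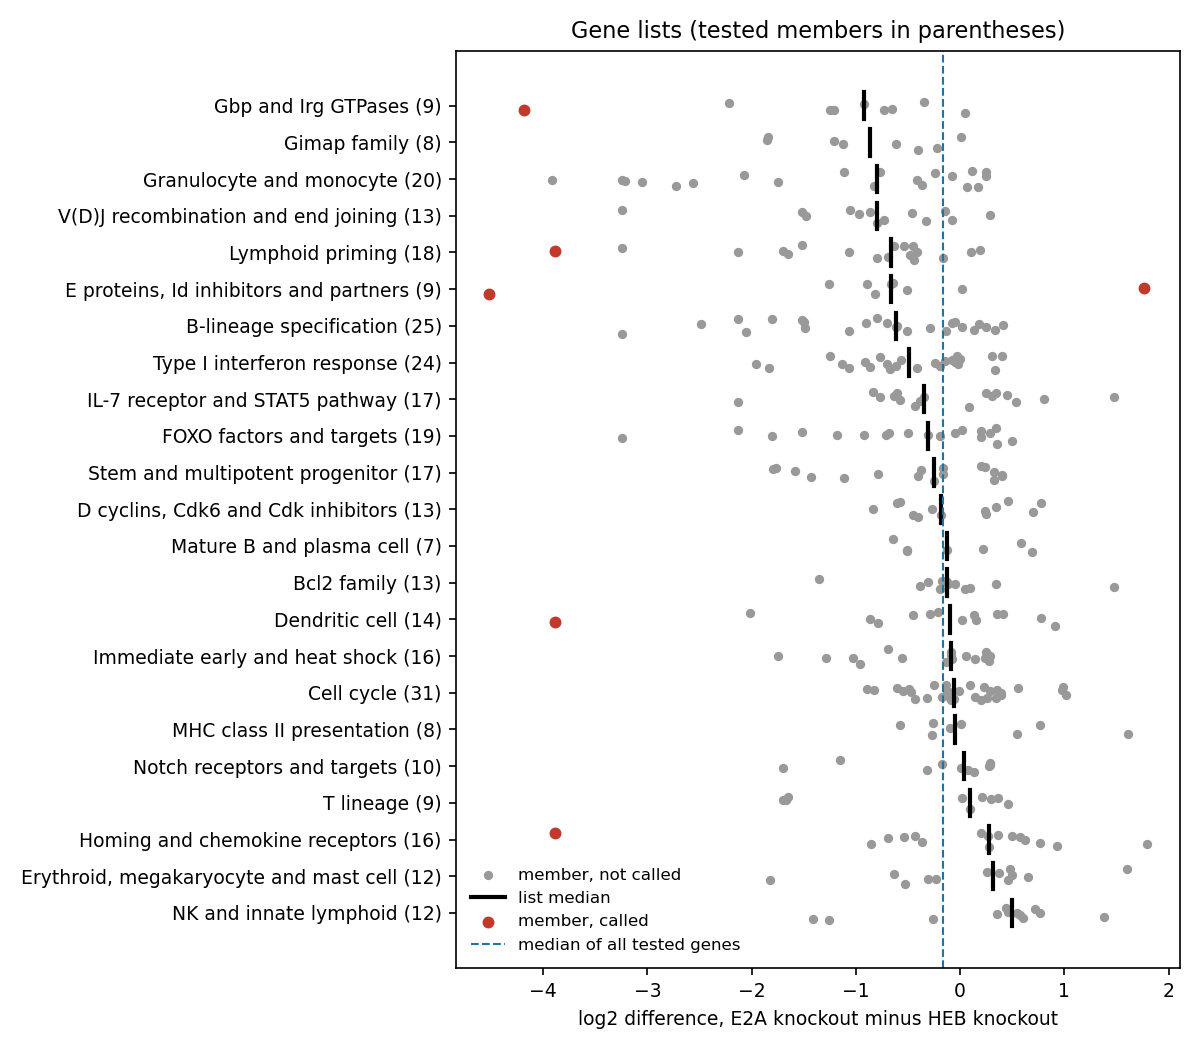
Each point is a tested member of a gene list at its log2 difference, E2A knockout minus HEB knockout, with a black bar at the list's median, called members in red and the all-gene median of -0.163 dashed. Lists run from the lowest median at the top (Gbp and Irg genes, -0.92) to the highest at the bottom (NK and innate lymphoid genes, 0.50); the sex-linked genes are not drawn.

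For the neutrophil genes Lcn2 and Ltf it was the HEB knockout arrays that lay away from WT, while other neutrophil genes were less even. The granulocyte and monocyte list was negative in 15 of 20 tested members with a median of -0.80 (-0.63 with loess and -0.42 without a filter on signal), beside medians against WT of -0.13 for E2A knockout and 0.54 for HEB knockout cells. Lcn2, a neutrophil granule protein that binds iron carriers, read 2.80, 3.09, 3.75 and 2.90 on E2A knockout arrays, against 5.23 and 7.16 on HEB knockout and 3.23 and 3.96 on WT arrays (difference -3.05, SE 0.51, limma adjusted p = 0.0782). Ltf, lactoferrin of the same granules, read 4.19, 3.42, 5.60 and 3.40, against 5.71 and 8.05 in HEB knockout and 3.82 and 4.19 in WT cells (difference -2.72, SE 0.73, limma adjusted p = 0.161). Both HEB knockout arrays were above all others for these genes, array 2 by far the more, and against WT HEB knockout cells differed by 2.60 for Lcn2 and 2.87 for Ltf, short of the threshold. S100a8, an abundant neutrophil calcium-binding protein, read 3.69, 3.90, 8.63 and 3.11, against 7.66 and 9.84 in HEB knockout and 3.35 and 6.87 in WT cells, so E2A knockout array 3 lay among the HEB knockout arrays and WT array 2 near them (difference -3.91, SE 1.55). The 6 neutrophil markers summed to 74.74 to 1170 in E2A knockout cells, with array 3 the highest, against 685.5 to 2645 in HEB knockout and 77.12 to 306.8 in WT cells, and 2 of the 6 were wholly lower in E2A knockout cells. Lysozyme genes behaved otherwise. Lyz2 read 5.81, 6.15, 6.56 and 5.29 in E2A knockout cells, against 7.70 and 8.34 in HEB knockout and 7.53 and 7.36 in WT cells (difference -2.07, limma adjusted p = 0.0818), and Lyz1 differed by -1.74 (0.089) with HEB knockout at the WT level (-0.06). Of the other neutrophil markers, S100a9, Camp and Ngp read 6.99, 7.53 and 8.65 on E2A knockout array 3. These values lay above HEB knockout array 1 (6.29, 7.01 and 7.55) and below HEB knockout array 2 (8.09, 8.79 and 9.25). Ltf, S100a8, S100a9, Camp and Ngp were named after their values were seen.

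A small set of genes was lowest in HEB knockout cells. Both HEB knockout arrays lay below all 6 others for 280 tested genes (2.34%), Tcf12 among them. Bcl2, an inhibitor of cell death, read 9.98, 10.19, 10.02 and 8.90 in E2A knockout cells, against 8.26 and 8.33 in HEB knockout and 10.14 and 8.56 in WT cells. The HEB knockout arrays were close together, but WT array 2 was almost as low, and its other tested probe sets differed by 1.14, 0.63, -0.03 and 2.1e-04. Heg1, a transmembrane protein of blood vessel development, read 5.74, 7.46, 5.19 and 5.47, against 3.82 and 3.77 in HEB knockout and 5.14 and 4.74 in WT cells. Nr4a2, an orphan nuclear receptor, differed by 2.11 (limma adjusted p = 0.186) and Ehd2, a membrane-shaping ATPase, by 1.69 (0.18). HEB knockout cells differed from WT by -1.28 and by -1.95 at these genes. The knockouts differed less at other tested probe sets, by 0.87, 0.50, 0.44, 0.35 and 0.02 for Nr4a2 and by 0.10 for Ehd2. There HEB knockout cells differed from WT by -0.31 to 0.54 for Nr4a2 and by 0.06 for Ehd2. None of these differences passed, and Nr4a2 and Ehd2 were named after their values were seen.

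Other lineages and general programmes gave medians nearer to 0. Stem and multipotent progenitor genes were negative in 11 of 17 tested members (median -0.25, -0.12 with loess), but the median was -0.53 without HEB knockout array 1 and -0.44 without E2A knockout array 3. Egfl7, an endothelial and stem cell gene, differed by -1.79 (limma adjusted p = 0.0893) and Angpt1, a niche ligand, by -1.77 (0.135). Kit, the stem cell factor receptor, differed by -1.58 (0.152) and Meis1, a homeobox factor, by -1.12 (0.117). Other tested probe sets gave -1.88, -1.42 and -0.35 for Egfl7, -0.37 for Angpt1, -0.19 for Kit, and 0.71 and 0.82 for Meis1. Erythroid, megakaryocyte and mast cell genes had a median of 0.32 over 12 members, which became -0.12 without E2A knockout array 1, the array with the highest erythroid marker sum, 805.8 against 67.62 on the lowest E2A knockout array. It was 0.07 without HEB knockout array 1 and without a filter on signal, and -0.64 over the 3 members left by the filter at the 75th percentile. Medians within 0.2 of 0 that turned positive with loess were those of dendritic cell (-0.10, and 0.09 with loess), mature B and plasma cell (-0.13 and 0.10), MHC class II (-0.05 and 0.19), cell cycle (-0.06 and 0.17), D cyclin and Cdk inhibitor (-0.18 and 0.01), Bcl2 family (-0.12 and 0.05) and immediate early and heat shock genes (-0.09 and 0.10). The all-gene median rose with loess too, from -0.163 to -0.003. As deposited, each of these lists but that of D cyclins and Cdk inhibitors already lay above the all-gene median. Leaving out single arrays moved these 7 medians between -0.26 and 0.26 and turned 5 of them positive. Within them, Cox6a2, a muscle-type cytochrome oxidase subunit also known from plasmacytoid dendritic cells, differed by -2.01 (limma adjusted p = 0.0732), and was the only 1 of 4 plasmacytoid markers with the E2A knockout arrays wholly below HEB knockout. Siglech, a defining surface lectin of these cells, read 5.80, 5.32, 4.81 and 6.95 in E2A knockout cells, against 5.10 and 4.52 in HEB knockout and 4.54 and 5.31 in WT cells, so its groups overlapped. The sum of the 4 markers, which includes Cox6a2, was 211 to 441.2 in E2A knockout cells, against 591.2 to 706.2 in HEB knockout and 470.6 to 714.2 in WT cells. H2-Aa, an MHC class II chain, differed by 1.61 (0.225), Rrm2, of nucleotide synthesis, by 0.98 (0.151), Mcm3, of the replicative helicase, by -0.89 (0.219), Pcna, the polymerase clamp, by -0.83 (0.234) and Hspa1b, a heat shock protein, by -1.28 (0.157). Other tested probe sets of Rrm2 (-0.86 and 0.99) and Mcm3 (-0.97, -0.57, 0.25 and 0.84) went both ways.

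A pair of called genes lay in the same region of chromosome 2. AA467197 (chr2:122637887-122641076, GRCm38.p6) and Sqor (chr2:122765327-122809553) are 124251 bases apart, with Slc30a4 and Bloc1s6 between them. The other tested genes of the region, named after their values were seen, had negative differences too, none past the threshold. Spata5l1, 1409 bases from AA467197, differed by -1.46 (SE 0.54), the zinc transporter gene Slc30a4 by -1.26 (SE 0.38), the organelle biogenesis gene Bloc1s6 by -0.93 (SE 0.35, but 0.53 and 0.43 at its other tested probe sets) and the creatine synthesis gene Gatm by -0.41 (SE 0.60). Over all 14 called genes, 69 neighbours within 250 kb were tested, 14 had an unadjusted p under 0.05 (20.3%, against 16.5% of all tested genes), and their median was -0.22, against -0.163. The called genes AA467197 and Sqor, each a neighbour of the other, are 2 of the 69 and of the 14. Fam167a, 54149 bases from Mtmr9 on chromosome 14, ran against it, at 4.48, 3.65, 3.88 and 4.19 in E2A knockout cells, against 6.22 and 6.01 in HEB knockout and 6.01 and 6.98 in WT cells (difference -2.06, SE 0.33, limma adjusted p = 0.0732). Gbp6, 217093 bases from Gbp8, shared its sign.

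**Figure D5:**
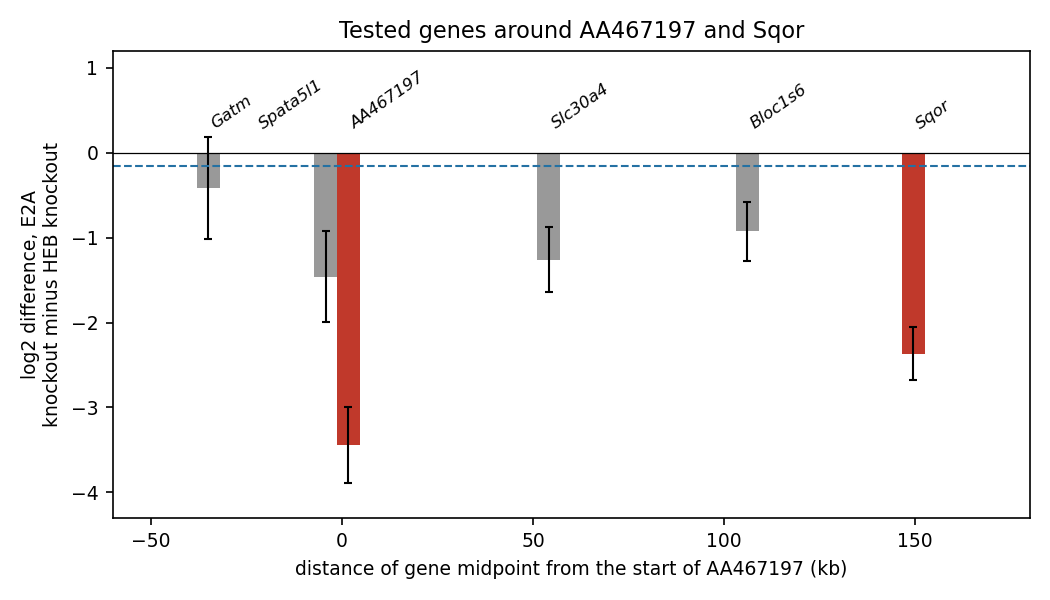
Log2 difference, E2A knockout minus HEB knockout, of the tested genes around AA467197 and Sqor, with SE bars, against the distance of each gene's midpoint from the start of AA467197 in kb; called genes are red and the dashed line is the all-gene median. AA467197 at -3.45 and Sqor at -2.37 lie lowest, and Gatm at -0.41 is nearest to 0.

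No other called gene lay near the targeted loci. Within 10 Mb of Tcf3 on chromosome 10, 214 genes were tested, none was called, 12.1% had an unadjusted p under 0.05 and the median was -0.11. Within 10 Mb of Tcf12 on chromosome 9, 108 genes were tested, none was called, 17.6% had an unadjusted p under 0.05 and the median was -0.07, against 16.5% and -0.163 for all genes.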

How the data were processed

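RNA of 8 sorted samples was amplified and hybridized to Affymetrix mouse arrays. The deposited intensity values are RMA summaries of probe sets, as the submitters' processing notes name that method. RMA corrects background, normalizes between arrays and averages probes on a log scale. The sources used here give neither its version nor the chip definition. The deposited intensities were on a linear scale, so their log2 was analysed as it stood.

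Of 45101 probe sets, 64 were controls, 932 named several genes and 9160 had no name in the platform annotation. Of the 34945 that named a single gene, 34741 matched RefSeq by gene number. The probe set with the highest mean stood for a gene, which was tested if it exceeded the median of at least 2 arrays. No arrays were identical and none was left out. Genotype means were fitted to all 8 arrays with limma 3.58.1 in R 4.3.3 (5 residual degrees of freedom). The contrast was E2A knockout minus HEB knockout, two-sided, and "called" means a Benjamini-Hochberg adjusted p under 0.05 over all genes tested. The number of arrays limits precision, with a median SE of 0.28.

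The genes and the 24 lists were chosen with earlier results of these data known. Named were fixed genes of lymphoid development, not all of them printed, called genes except clone names, the 5 nearest the threshold and the 5 largest with arrays apart in each direction, and list members with the smallest p. Alternatives were other filters, loess, median centring, the mean of or every probe set, trend and robust eBayes, array weights, fewer arrays, a replicate block, other thresholds, covariates for hybridization controls and Xist, and leaving out arrays. Scripts were tested on simulated data.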

Additional observations from a re-analysis of the deposited data

Results flagged for a closer look

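Among 83 of the genes named above, 3 had an E2A knockout array far from the other 3. Chance would set apart about 1 in 20 groups of this size, and 3 of 83 is no more than that share. The share cannot say whether any single gene was set apart by chance. Bcl2 read 8.90 on E2A knockout array 4, against 9.976 to 10.194 on the others. Sesn3 read 6.618 on E2A knockout array 4, against 6.234 to 6.284 on the others. S100a8 read 8.626 on E2A knockout array 3, against 3.113 to 3.902 on the others. The other neutrophil genes Ltf, Lcn2, S100a9, Camp and Ngp were also highest on that array within the group. S100a9, Camp and Ngp read 6.99, 7.53 and 8.65 there, and were not among the 83.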

How the results depend on the processing

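The 14 calls were 12 without a filter on signal, 13 with a filter at the 75th percentile, 10 with loess, 21 with median centring and 14 with the mean of probe sets, of which 7 were shared with the main set. Other settings moved the count further. It was 42 with trend and robust eBayes, 91 with array weights, 86 at an adjusted p under 0.10, 6 with only the 6 knockout arrays, 4 with Xist as a covariate, 1 with the hybridization controls as a covariate and 1 over every probe set. It was 0 with HEB knockout array 1 and WT array 2 both left out, where limma gave 699 genes an unadjusted p under 0.05. Leaving out each array in turn gave 1 to 21 calls. Arrays numbered 1 and 2 gave 3 calls, and the replicate block on the same arrays also gave 3, sharing 1 with the main set. Same-numbered E2A and HEB knockout arrays had residual correlations of 0.148 and -0.009, with 2 pairs only, so the numbers were not taken as pairing. In every setting that kept one probe set per gene the called genes present held their sign and at least 2-fold size. With the mean of probe sets 12 of 13 did, the smallest at 0.777.

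Among the genes named, the sign turned for Tcf4 with median centring (-0.0752), the hybridization controls (-0.0321) and HEB knockout array 1 and WT array 2 left out (-0.0544), and leaving out single arrays gave -0.0936 to 0.1888. Gatm turned to 0.4221 with arrays 1 and 2 and with the replicate block, and ranged from -0.802 to 0.0373 without single arrays. The mean of probe sets turned Meis1 to 0.1388 and Bloc1s6 to 0.0078. The cause was not tested. The number of arrays, 2 for HEB knockout and for WT, and signal near the floor limit all values.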
